A study of Homo sapiens with 8 samples.

Results

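The glycolysis enzymes and hypoxia-response genes described here are 36 named human genes, listed by symbol with earlier results of these data known. They form a glycolysis subgroup of 24 genes, from hexokinase to the lactate transporters, and a hypoxia subgroup of 12 genes, which holds the oxygen-regulated transcription factors and well-known targets of theirs. All 36 were found among the annotated genes, and 35 passed the filter on low counts, which left 19280 of the 34290 genes with a count. The series sequenced RNA of HEK293T, an established line from human embryonic kidney that carries the SV40 large T antigen, in 8 libraries. In 4 libraries the cells overexpressed KCNQ3, a voltage-gated potassium channel subunit of the neuronal M-current, from a transfected plasmid holding a tagged human open reading frame. The other 4 libraries are normal HEK293T, the control. Harvest was 48 hours after transfection. The transfection text is attached to every sample, and the sources used here do not state whether control cells received reagent or an empty plasmid. The labels name the same line and the same high-glucose medium with serum for both groups, and the promoter that drove KCNQ3 is not named. The 4 libraries of each group are described as biological replicates, but separate cultures are not stated. The p-values therefore cover the spread among these 8 samples alone, part or all of which may be technical.

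Glycolysis splits glucose into pyruvate in the cytosol, and lactate dehydrogenase then turns pyruvate into lactate, which monocarboxylate transporters export. Pyruvate dehydrogenase kinases (PDK) hold pyruvate back from oxidation in the mitochondria. When oxygen is short, the prolyl hydroxylases encoded by the EGLN genes no longer mark the alpha subunits HIF1A and EPAS1 for destruction, and the stabilised factors bind short ACGTG or GCGTG elements and raise many glycolytic genes together with VEGFA, BNIP3, CA9 and the EGLN genes themselves. HIF1A protein is controlled mainly by its breakdown, so its RNA does not report its activity.

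Those elements are visible in the promoters of several members. The 250 bases before the RefSeq start (GRCh38.p14, gene strand, 5′ to 3′) are printed here for LDHA, LDHB, BNIP3 and CA9. The lactate dehydrogenase pair, LDHA and LDHB, had fold changes of opposite sign without passing the test. The sign of LDHB depended on an identifier outside the gene totals, as described below. BNIP3 and CA9 are textbook HIF targets, of which the first was expressed and the second had no count. Capitals mark ACGTG or GCGTG on either strand. A palindromic CACGTG holds ACGTG on both strands, counts as 2 matches, and is also the E-box bound by other factors.
LDHA promoter (chr11:18394313-18394562, plus strand): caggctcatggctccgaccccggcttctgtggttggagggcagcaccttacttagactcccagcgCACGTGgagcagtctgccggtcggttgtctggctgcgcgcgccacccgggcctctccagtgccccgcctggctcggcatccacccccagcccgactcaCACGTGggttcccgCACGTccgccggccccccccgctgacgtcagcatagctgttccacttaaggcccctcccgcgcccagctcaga
LDHB promoter (chr12:21657843-21658092, minus strand): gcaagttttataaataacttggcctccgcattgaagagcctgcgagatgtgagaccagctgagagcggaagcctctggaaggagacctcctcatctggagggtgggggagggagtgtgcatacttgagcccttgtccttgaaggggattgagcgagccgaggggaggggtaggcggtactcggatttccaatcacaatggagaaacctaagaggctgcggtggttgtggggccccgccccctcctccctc
BNIP3 promoter (chr10:131981924-131982173, minus strand): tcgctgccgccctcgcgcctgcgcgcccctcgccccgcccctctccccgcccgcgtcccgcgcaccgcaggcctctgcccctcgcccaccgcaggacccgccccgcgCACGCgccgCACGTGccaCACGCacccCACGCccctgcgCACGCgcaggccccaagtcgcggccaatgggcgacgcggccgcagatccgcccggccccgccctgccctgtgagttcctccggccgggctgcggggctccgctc
CA9 promoter (chr9:35673678-35673927, plus strand): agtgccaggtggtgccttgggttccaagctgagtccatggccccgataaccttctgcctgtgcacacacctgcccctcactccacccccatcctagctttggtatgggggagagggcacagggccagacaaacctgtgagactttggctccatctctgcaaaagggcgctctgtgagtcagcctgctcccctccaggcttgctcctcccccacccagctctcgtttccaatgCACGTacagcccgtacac
The LDHA window held 5 matches, 73 to 185 bases before the start, and the LDHB window held 0. The BNIP3 window held 6 matches, 104 to 143 bases before the start, and the CA9 window held 1, at 18 bases. Of the 31 members with a window in the RefSeq table, 27 had a match in at least 1 window (19 of 22 in the glycolysis subgroup and 8 of 9 in the hypoxia subgroup). Over all genes there, 12945 of 27305 did (47.4%). A gene with several windows has more chances of a match. By window, 60.3% of the 58 windows of members held a match, against 43.2% of all 35116 windows. That background is every window of the RefSeq table, not matched to the members for expression or base composition. VEGFA, NDRG1, BNIP3L, SLC16A1 and PFKFB2 have no window there. A match is a run of letters and not evidence of binding.

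KCNQ3 itself had 15283, 15874, 19709 and 18603 counts in the overexpression libraries, against 4, 5, 0 and 2 in the control libraries, which checks the labels. Total estimated counts were 24738542 to 27542588 in overexpression libraries and 24020097 to 30734915 in controls. The mitochondrial genome supplied 4.77% to 5.77% of counts in overexpression libraries and 3.94% to 5.53% in controls. The kidney-line and neural-like markers PAX2, LHX1, VIM, NEFM, INA, KRT8 and KRT18 all passed the count filter. Of these, VIM averaged 684 CPM in overexpression libraries and 759 CPM in controls. PAX2 and LHX1 were scarce, at 3.67 and 2.55 CPM in overexpression libraries and 3.85 and 2.52 CPM in controls. CPM is counts per 1000000 counts of a library, TMM-scaled. The blood markers PTPRC, CD3E and HBB had no count, and LYZ had 1 count in all. Of the fibroblast markers, COL1A1 averaged 15.2 CPM in overexpression libraries and 15.4 CPM in controls and COL3A1 1.55 CPM in overexpression libraries and 1.34 CPM in controls, PDGFRB had 20 counts in overexpression libraries and 21 in controls, and DCN had none. Of the hepatocyte markers, ALB had 5 counts in overexpression libraries and 0 in controls, and APOA1 had 9 counts in overexpression libraries and 12 in controls.

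Across the members as a whole, no gene passed edgeR's quasi-likelihood test at an adjusted p of 0.05 over all genes, 0 of 35 tested, where 0.301% of all genes tested passed (58 of 19280). The fold changes were small and mostly positive: 25 of 35 lay above 0 (71.4%), against 52.6% of all genes. The median log2 fold change, overexpression over control, was 0.11 in the glycolysis subgroup and 0.12 in the hypoxia subgroup, against 0.01 over all genes tested. At an unadjusted p under 0.05, 6 members were higher (TPI1, ALDOA, PGAM1, GAPDH, LDHA and SLC16A1), where 9.92% of all genes were. On the other side 3 were lower (LDHB, HK1 and VEGFA), where 9.46% of all genes were. The sign of LDHB depended on an identifier outside the gene totals, as described below. The libraries of the groups did not overlap for 4 members (TPI1, ALDOA and GAPDH above the controls, VEGFA below them), 4 of 35 beside 11.6% of all genes, a share like the background. DESeq2 on the same counts called VEGFA and TPI1, where it called 9.9% of the 13655 genes it gave an adjusted p. limma on log2(TPM + 1) called 0 members, where it called 0.036% of genes. In bulk samples such as these, fewer cells of a kind and less RNA per cell cannot be told apart.

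**Figure D1:**
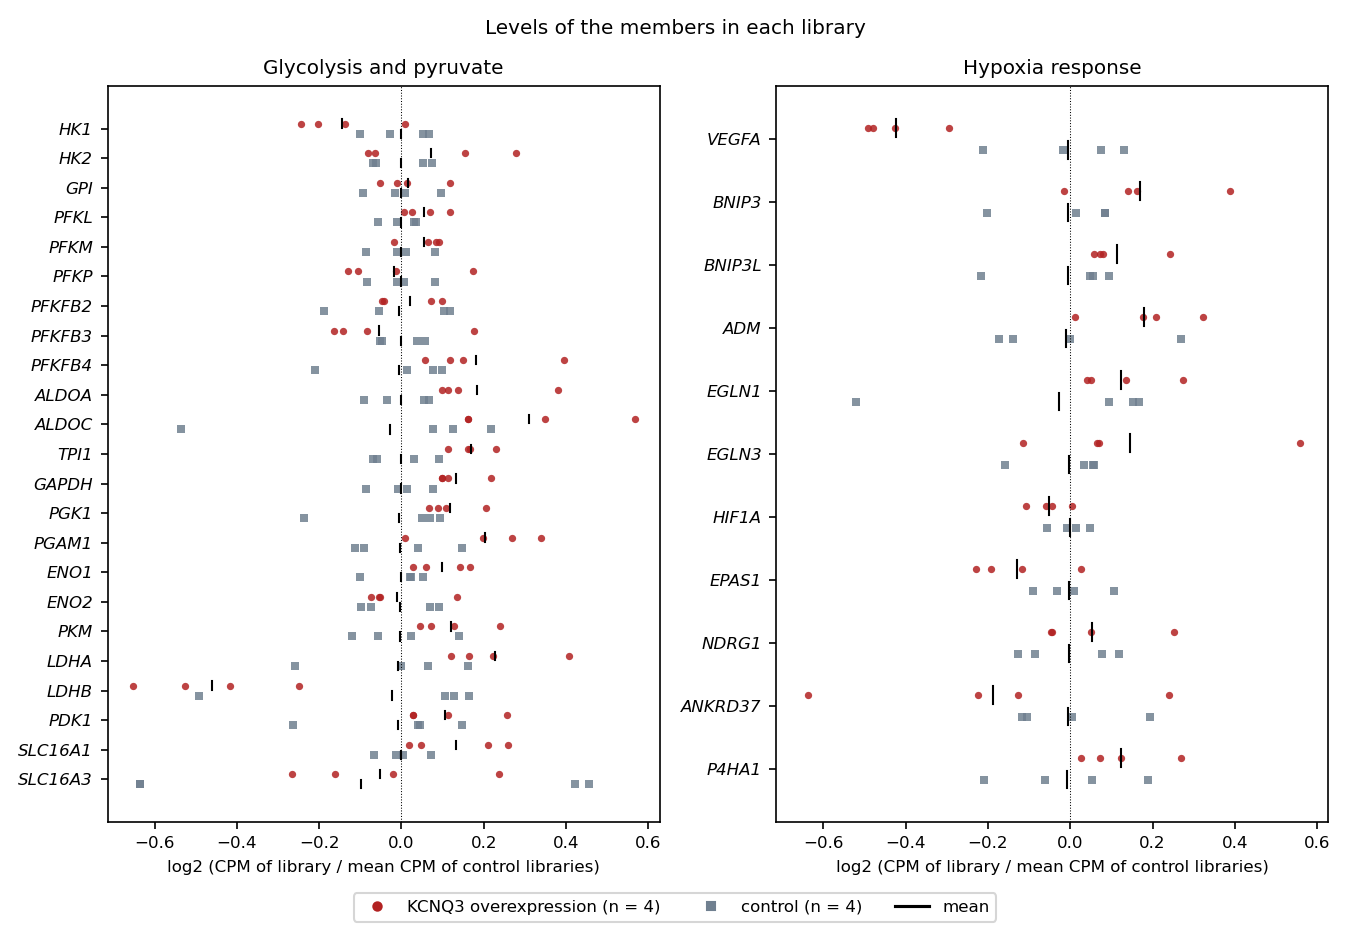
Level of each tested member in each library, as log2 of its CPM over the mean CPM of the control libraries, with overexpression libraries as circles above control libraries as squares and the group mean as a black bar. VEGFA lies wholly below the controls and TPI1, ALDOA and GAPDH wholly above them; overexpression replicate 3 is the rightmost circle of most genes. PDK3, whose values range far wider, is left out.

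A single library in each group held many of the members' extreme values. Overexpression replicate 3 held the highest level of the 8 libraries for 26 of 35 members (18 of 24 in the glycolysis subgroup and 8 of 11 in the hypoxia subgroup), or 74.3%, against 10.6% of all genes. Control replicate 1 held the lowest level for 17 of 35, or 48.6%, against 18.4% of all genes. The median glycolysis member stood at 0.06, 0.07, 0.21 and 0.04 log2 units from the control mean in overexpression replicates 1 to 4, and at −0.07, 0.07, 0.00 and 0.03 in control replicates 1 to 4. The median hypoxia member stood at 0.00, 0.01, 0.25 and 0.05 in overexpression replicates 1 to 4, and at −0.14, 0.00, 0.08 and 0.06 in control replicates 1 to 4. Apart from those libraries the groups sat within 0.1 log2 units of each other. Without overexpression replicate 3 the median log2 fold change was 0.06 for glycolysis and 0.0051 for hypoxia, and without control replicate 1 it was 0.06 for glycolysis and 0.01 for hypoxia. Without both, a setting chosen after seeing the data, it was 0.04 for glycolysis and −0.04 for hypoxia, and no member passed the threshold among 9 genes called. These libraries were picked because they held the extremes. Leaving out the highest overexpression library or the lowest control narrows a positive difference by construction. The smaller medians therefore do not show that the groups were alike. Control replicate 1 had the largest total count of the series (30734915) and overexpression replicate 3 the largest of its group (27542588); the part of depth in these values was not tested.

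**Figure D2:**
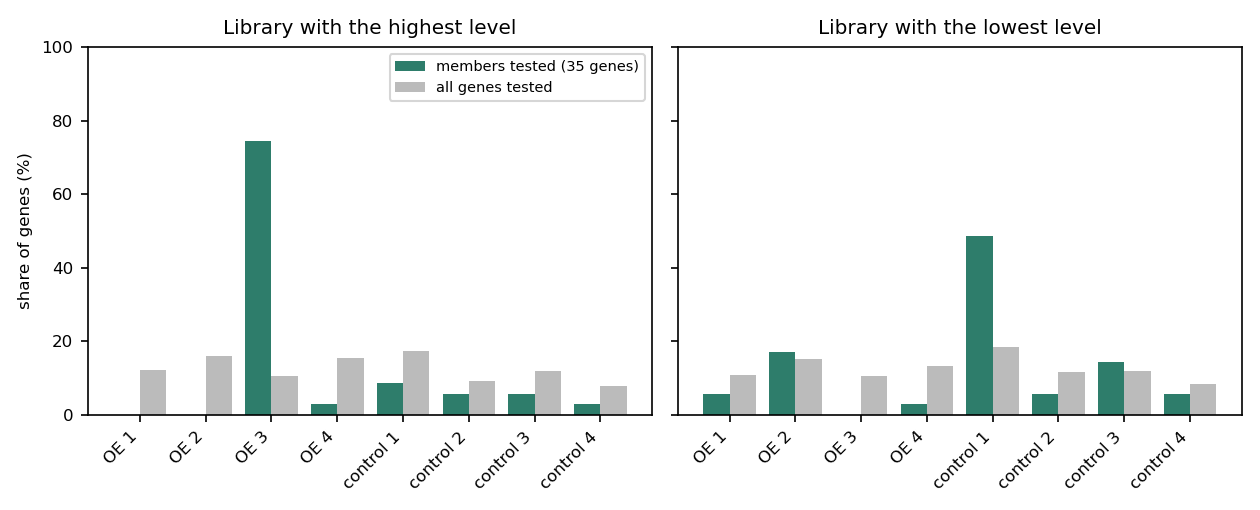
Share of genes, in percent, whose highest level (left) or lowest level (right) of the 8 libraries fell in each library, for the 35 members tested (green) and for all genes tested (grey). Overexpression (OE) replicate 3 holds the highest level for 74.3% of members against 10.6% of all genes, and control replicate 1 the lowest for 48.6% against 18.4%.

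In the middle of the pathway a hexose becomes 2 trioses and the trioses are oxidised, and 3 members of these steps, TPI1, ALDOA and GAPDH, had every overexpression library above every control without passing the test. TPI1 (ENSG00000111669, chromosome 12, 6867119 to 6870948, GRCh38), the isomerase that interconverts the trioses, had 415, 429, 450.2 and 431 CPM in the overexpression libraries, against 366, 409, 368 and 392 CPM in the controls. The lowest overexpression library lay above the highest control. Its log2 fold change was 0.17 (SE 0.05, edgeR adjusted p = 0.112), and DESeq2 gave an adjusted p of 0.00937 with a log2 fold change of 0.16. ALDOA (ENSG00000149925, chromosome 16, 30064164 to 30070457), the aldolase that makes the trioses, had 636, 625, 752 and 619 CPM in the overexpression libraries, against 542, 564, 605 and 599.9 CPM in the controls. The groups did not overlap, and replicate 3 stood well above the other overexpression libraries. The log2 fold change was 0.19 (SE 0.07, edgeR adjusted p = 0.177). GAPDH (ENSG00000111640, chromosome 12, 6533927 to 6538374), which oxidises glyceraldehyde 3-phosphate and is often used as a reference gene, had 1742, 1759, 1893 and 1743 CPM in the overexpression libraries, against 1532, 1716, 1617 and 1644 CPM in the controls. The gap between the groups was small, 1742 above 1716 CPM, and replicate 3 was again the highest. Its log2 fold change was 0.13 (SE 0.05, edgeR adjusted p = 0.199), so a gene used as a constant stood 1.1 times higher in the overexpression libraries without passing the test.

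PGAM1, the phosphoglycerate mutase, had 136, 155, 171 and 163 CPM in the overexpression libraries, against 125, 149.8, 127 and 139 CPM in the controls. The groups overlapped through overexpression replicate 1 and control replicates 2 and 4. The log2 fold change was 0.21 (SE 0.08, edgeR adjusted p = 0.193). PGAM4, a near copy of PGAM1 among the other pathway genes, shares its reads by estimate. It had 48.3 ± 4.03 CPM in overexpression libraries and 40.5 ± 3.24 CPM in controls (SD, n = 4 each). Summed, the pair had 205 ± 19.1 CPM in overexpression libraries and 176 ± 14.6 CPM in controls, a log2 fold change of 0.22 (SE 0.08, edgeR adjusted p = 0.165), in a sum added after seeing the data. The remaining enzymes of the lower pathway were less separated. PGK1, the phosphoglycerate kinase, averaged 452 ± 19.5 CPM in overexpression libraries and 416 ± 42.5 CPM in controls. ENO1, the main enolase, averaged 1394 ± 63.2 CPM in overexpression libraries and 1300.2 ± 60.3 CPM in controls. PKM, the pyruvate kinase of most tissues, averaged 801 ± 48.3 CPM in overexpression libraries and 736 ± 57.8 CPM in controls. Their log2 fold changes were 0.12, 0.10 and 0.12 with edgeR adjusted p of 0.391, 0.321 and 0.325. ENO2, the neuron-enriched enolase, averaged 43.4 ± 3.04 CPM in overexpression libraries and 43.7 ± 2.92 CPM in controls. ALDOC, the brain aldolase, had 11.4 ± 1.59 CPM in overexpression libraries and 9.11 ± 1.93 CPM in controls (log2 fold change 0.32, SE 0.17, edgeR adjusted p = 0.327).

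The lactate dehydrogenase genes had fold changes of opposite sign, neither past the test, and the sign of LDHB depended on an identifier outside the gene totals. LDHA (ENSG00000134333, chromosome 11, 18394388 to 18408425), the muscle-type subunit that favours lactate and a HIF target, had 663, 683, 809 and 711 CPM in the overexpression libraries, against 509.8, 682, 609.5 and 638 CPM in the controls. Overexpression replicate 1 lay below control replicate 2, and replicate 3 stood highest. The log2 fold change was 0.23 (SE 0.09, edgeR adjusted p = 0.21). LDHB (ENSG00000111716, chromosome 12, 21635342 to 21757857), the heart-type subunit, whose printed promoter held no match, had 469, 621, 553 and 512 CPM in the overexpression libraries, against 806, 524, 794 and 826 CPM in the controls. Control replicate 2 lay among the overexpression libraries and the other controls far above them. The log2 fold change was −0.45 (SE 0.16, edgeR adjusted p = 0.193), and without control replicate 2 it was −0.59 (edgeR adjusted p = 0.0478, where 0.102% of genes passed).

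LDHB could not be read on its own. The deposited tables hold 1 transcript identifier, ENST00000673047, that matches no gene of the annotation used here, and its counts were 12809, 9595, 11097 and 11475 in the overexpression libraries, against 2075, 11453, 2770 and 2975 in the controls. It was high in each library in which LDHB was low, control replicate 2 included. It was picked after the values were seen, from 54 unmatched identifiers with over 2000 counts in a library, and the files do not say which gene it belongs to. Summed, LDHB and this identifier had 948, 1017, 965 and 987 CPM in the overexpression libraries, against 872, 956, 909 and 943 CPM in the controls. The sum's groups overlapped only through overexpression replicate 1 and control replicate 2, and its log2 fold change was 0.09 (SE 0.05, edgeR adjusted p = 0.316), the opposite sign to LDHB alone.

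**Figure D3:**
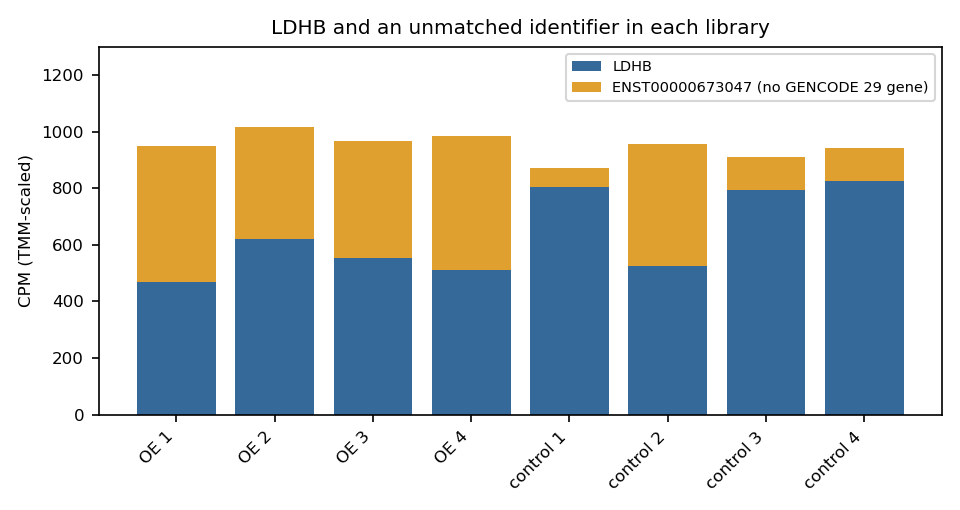
CPM of LDHB (blue) and of the unmatched identifier ENST00000673047 (orange), stacked for each library, with overexpression (OE) libraries left of controls. LDHB ranges from 469 to 826 CPM while the stacked height ranges from 872 to 1017 CPM.

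At the entry to the pathway the hexokinases did not move together. HK1, the housekeeping hexokinase, had 108, 105, 125 and 113 CPM in the overexpression libraries, against 129, 130.3, 122 and 116 CPM in the controls. Overexpression replicate 3 lay within the controls and the other replicates below them. The log2 fold change was −0.14 (SE 0.06, edgeR adjusted p = 0.225). HK2, the inducible hexokinase and HIF target, averaged 65.5 ± 8.01 CPM in overexpression libraries and 62.0 ± 3.22 CPM in controls (edgeR adjusted p = 0.641). GPI, the glucose 6-phosphate isomerase, averaged 266 ± 13.9 CPM in overexpression libraries and 263 ± 14.1 CPM in controls. The phosphofructokinase genes PFKL, PFKM and PFKP, which catalyse the committed step, had log2 fold changes of 0.06, 0.06 and −0.01. The PFKFB genes, bifunctional enzymes that set the activator fructose 2,6-bisphosphate, had log2 fold changes of 0.02 (PFKFB2), −0.05 (PFKFB3) and 0.19 (PFKFB4), and PFKFB4 averaged 14.9 ± 1.63 CPM in overexpression libraries and 13.1 ± 1.26 CPM in controls (edgeR adjusted p = 0.302).

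At the exit, SLC16A1, the monocarboxylate transporter MCT1, had 231, 236, 264 and 273 CPM in the overexpression libraries, against 229, 239.8, 218 and 226 CPM in the controls. Overexpression replicates 3 and 4 stood above every control, and replicates 1 and 2 lay among them. The log2 fold change was 0.14 (SE 0.06, edgeR adjusted p = 0.241). SLC16A3, the hypoxia-inducible lactate exporter MCT4, was barely present, at 1.26 ± 0.198 CPM in overexpression libraries and 1.30 ± 0.535 CPM in controls. It overlaps CSNK1D on the opposite strand, which averaged 209 CPM over all libraries. PDK1, a HIF-induced kinase of pyruvate dehydrogenase, averaged 67.2 ± 5.15 CPM in overexpression libraries and 62.3 ± 7.28 CPM in controls (log2 fold change 0.11, edgeR adjusted p = 0.533). PDK3 swung within both groups, with 1.35, 10.3, 7.09 and 0.83 CPM in the overexpression libraries, against 0.551, 1.25, 11.4 and 0.398 CPM in the controls. Its log2 fold change of 0.55 had an SE of 1.33.

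Levels between genes can be compared per length, in TPM. GAPDH led with 2146 ± 114 TPM in overexpression libraries and 2007 ± 90.6 TPM in controls, followed by ENO1 with 1241 ± 91.0 TPM in overexpression libraries and 1197 ± 48.9 TPM in controls. ALDOA, LDHB, LDHA and PKM came next in overexpression libraries, at 665 ± 72.3, 636 ± 42.1, 619.9 ± 106 and 581 ± 30.9 TPM, and each mean differed from the next by less than the larger SD of the pair. In controls LDHB came after ENO1 at 922 ± 179.7 TPM and ALDOA, LDHA and PKM followed at 602 ± 42.3, 545 ± 65.1 and 541 ± 40.6 TPM. The LDHB levels leave out the unmatched identifier ENST00000673047, so the rank of LDHB and its gap between groups are not firm. With that identifier added, LDHB had 979 CPM in overexpression libraries and 920.1 CPM in controls. The regulatory enzymes were far lower, with HK1 at 49.4 ± 4.05 TPM in overexpression libraries and 56.6 ± 5.08 TPM in controls and HK2 at 18.5 ± 2.62 TPM in overexpression libraries and 18.1 ± 0.682 TPM in controls. In the hypoxia subgroup VEGFA was the most abundant, at 74.9 ± 9.94 TPM in overexpression libraries and 104 ± 8.09 TPM in controls, and the least abundant detected member was ANKRD37, at 2.33 ± 0.779 TPM in overexpression libraries and 2.88 ± 0.154 TPM in controls.

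**Figure D4:**
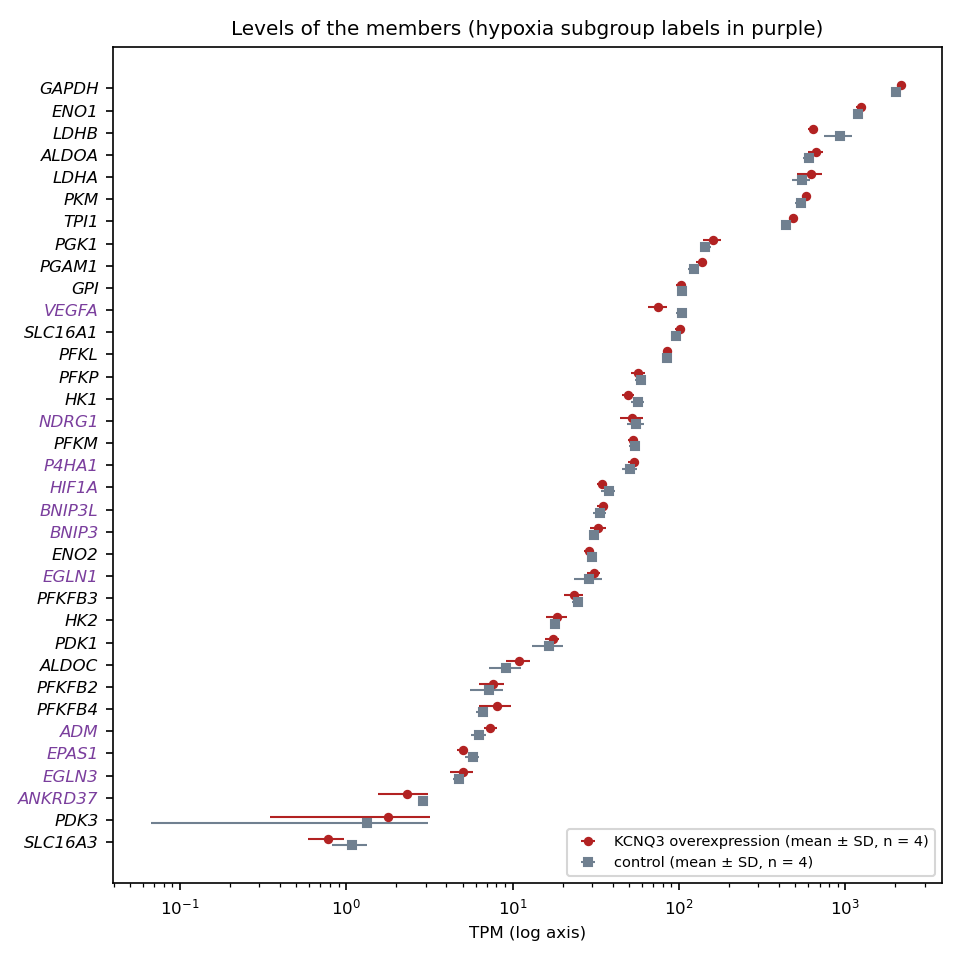
Mean TPM (log axis) of the 35 members with counts, ordered by the control mean, with SD over the 4 libraries of each group; overexpression is drawn above control in each line and hypoxia members are labelled in purple. GAPDH leads at 2146 TPM in overexpression libraries and 2007 TPM in controls, and the widest gaps among the more abundant genes are those of LDHB (636 TPM in overexpression libraries, 922 TPM in controls) and VEGFA (74.9 TPM in overexpression libraries, 104 TPM in controls). LDHB is drawn without the unmatched identifier ENST00000673047, on which the sign of its gap depends. The lower bar of PDK3 in controls, which would pass 0, is shortened.

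The balance between isozymes does not depend on library scaling. It was taken as a gene's share, in a library, of the summed TPM of the members in its family, and other isozymes were left out. None of the 12 shares in 8 families differed past the threshold by exact two-sided permutation over the 70 assignments of libraries, adjusted over the 12 shares; the smallest p the design allows is 0.0286 and the smallest found was 0.0571 (adjusted 0.343). LDHA made up 54.1%, 41.9%, 52.5% and 48.0% of lactate dehydrogenase in the overexpression libraries, against 32.3%, 48.0%, 32.4% and 37.8% in the controls (exact p = 0.0571, adjusted 0.343). With the unmatched identifier counted as LDHB, a choice made with the data in view, the share was 34.4 ± 3.85% in overexpression libraries and 32.0 ± 2.44% in controls (SD, n = 4 each, exact permutation p = 0.343). PFKFB4 made up 20.7 ± 3.43% of the PFKFB genes in overexpression libraries and 17.2 ± 1.60% in controls (exact permutation p = 0.0571, adjusted 0.343, n = 4 each), and PFKFB3 made up 59.6 ± 3.23% in overexpression libraries and 64.2 ± 2.53% in controls. The other balances were close between groups. HK1 held 72.8 ± 1.70% of hexokinase in overexpression libraries and 75.6 ± 1.97% in controls. Of phosphofructokinase, PFKL held 43.6 ± 1.17% in overexpression libraries and 42.8 ± 0.640% in controls. In aldolase and enolase a single gene supplied nearly all: ALDOA held 98.4 ± 0.167% in overexpression libraries and 98.5 ± 0.311% in controls, and ENO1 97.7 ± 0.135% in overexpression libraries and 97.5 ± 0.167% in controls. EGLN1 held 86.0 ± 1.56% of the EGLN pair in overexpression libraries and 85.5 ± 3.71% in controls. PDK1 held 91.4 ± 6.10% of the PDK pair in overexpression libraries and 93.4 ± 7.32% in controls. Both pairs leave out an expressed isozyme. PDK2 averaged 28.4 TPM in overexpression libraries and 27.1 TPM in controls, above PDK1 at 17.4 and 16.5 TPM. EGLN2 averaged 24.7 TPM in overexpression libraries and 24.3 TPM in controls, near EGLN1 at 30.7 and 28.9 TPM.

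In the hypoxia subgroup the member furthest from the controls was VEGFA, and it lay below them. VEGFA (ENSG00000112715, chromosome 6, 43770184 to 43786487), the endothelial growth factor induced by HIF and also by other stress pathways, had 99.1, 86.5, 90.5 and 87.2 CPM in the overexpression libraries, against 120.1, 105, 133 and 128 CPM in the controls. Every overexpression library lay below every control. Its log2 fold change was −0.42 (SE 0.07, edgeR adjusted p = 0.0507), 0.746 times the control level and just outside the threshold. It passed under 6 of 17 alternatives (edgeR with DESeq2 size factors, where 0.311% of genes passed, without a filter, 0.163%, at a mean of at least 50 counts, 0.376%, without overexpression replicate 1, 1.94%, without control replicate 2, 0.102%, and DESeq2). Adjusted p ran from 3.73e-06 by DESeq2 to 0.336 on log2(TPM + 1) with no filter, and its log2 fold change stayed between −0.49 and −0.38. VEGFA has 26 protein-coding and 6 retained-intron transcripts in the annotation, a division examined after seeing the data. The protein-coding ones had 45.7, 58.3, 47.7 and 52.5 CPM in the overexpression libraries, against 58.9, 54.4, 65.3 and 54.8 CPM in the controls. The retained-intron ones had 53.3, 28.1, 42.6 and 34.6 CPM in the overexpression libraries, against 61.0, 50.5, 67.8 and 73.2 CPM in the controls. Both kinds overlapped between groups: the ratio of means was 0.875 for coding transcripts (exact permutation p = 0.114) and 0.628 for retained-intron transcripts (exact permutation p = 0.0571), both 0.114 after adjustment over the 2 types.

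**Figure D5:**
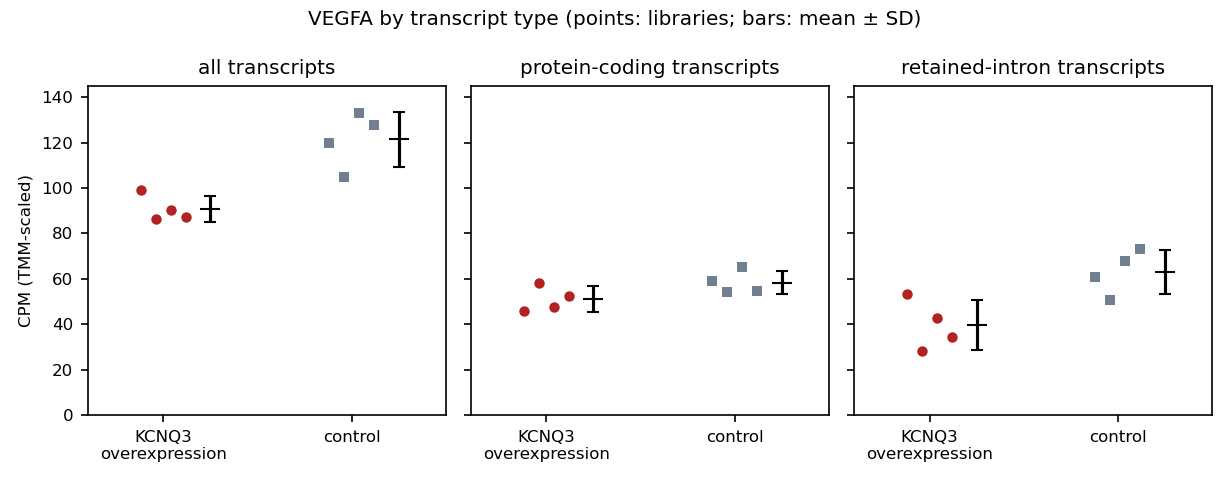
CPM of VEGFA in each library, over all its transcripts (left), its protein-coding transcripts (middle) and its retained-intron transcripts (right), overexpression left of control, with mean ± SD over 4 libraries. Over all transcripts the overexpression libraries reach at most 99.1 CPM and the controls start at 105 CPM, while each kind alone overlaps between groups.

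Neither mitophagy receptor passed the test. BNIP3, whose promoter is printed above, had 51.4, 57.2, 68.0 and 58.1 CPM in the overexpression libraries, against 45.1, 55.1, 52.4 and 55.1 CPM in the controls (log2 fold change 0.18, SE 0.09, edgeR adjusted p = 0.326). BNIP3L had 70.2, 71.2, 79.7 and 70.9 CPM in the overexpression libraries, against 58.0, 69.7, 71.9 and 70 CPM in the controls (log2 fold change 0.12, SE 0.07, edgeR adjusted p = 0.395). Both genes had overexpression replicate 3 at the top and control replicate 1 at the bottom, and the other 6 libraries overlapped. Without those libraries the log2 fold changes were 0.04 for BNIP3 and 0.0045 for BNIP3L. They are lower by construction, since the top overexpression library and the bottom control were left out. ADM, the vasodilator peptide adrenomedullin, had 7.05, 6.29, 7.80 and 7.21 CPM in the overexpression libraries, against 5.67, 5.53, 7.52 and 6.24 CPM in the controls (log2 fold change 0.19, SE 0.11, edgeR adjusted p = 0.388). P4HA1, a collagen prolyl hydroxylase, had 92.5, 89.5, 106 and 95.8 CPM in the overexpression libraries, against 76.0, 84.2, 100.3 and 91.2 CPM in the controls (log2 fold change 0.13, SE 0.08, edgeR adjusted p = 0.45). For both, control replicate 3 lay above several overexpression libraries.

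The oxygen sensors and the factors they control differed little. EGLN3, the most hypoxia-inducible of the prolyl hydroxylases, had 6.64, 7.53, 10.6 and 7.55 CPM in the overexpression libraries, against 6.45, 7.49, 7.36 and 7.48 CPM in the controls (log2 fold change 0.17, SE 0.13, edgeR adjusted p = 0.53). Overexpression replicate 3 stood apart from the other 7 libraries. Without it and control replicate 1, the lowest library, the log2 fold change was −0.04, a choice that lowers it by construction. EGLN1, the main hydroxylase at normal oxygen, averaged 84.2 ± 6.43 CPM in overexpression libraries and 77.0 ± 15.7 CPM in controls, with control replicate 1 at 53.7 CPM. Without that library, the lowest, its log2 fold change was −0.01 in place of 0.13, a choice that lowers it by construction. HIF1A had 87.4, 81.0, 84.6 and 83.7 CPM in the overexpression libraries, against 90.1, 86.8, 88.1 and 83.8 CPM in the controls (log2 fold change −0.05, SE 0.04, edgeR adjusted p = 0.523). EPAS1, which encodes HIF-2 alpha, had 15.3, 14.9, 17.8 and 16.1 CPM in the overexpression libraries, against 18.8, 17.6, 16.4 and 17.1 CPM in the controls (log2 fold change −0.13, SE 0.07, edgeR adjusted p = 0.354). The groups overlapped for both, and HIF1A held 87.2 ± 0.905% of the summed TPM of the pair in overexpression libraries and 86.7 ± 1.22% in controls.

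The last members of the subgroup were a moderately expressed gene, a scarce one and one with no count. NDRG1, a stress-induced gene and HIF target, averaged 99.6 ± 9.89 CPM in overexpression libraries and 95.7 ± 7.94 CPM in controls; its log2 fold change of 0.06 turned to −0.08 on log2(TPM + 1). ANKRD37, a small HIF target, averaged 1.22 ± 0.302 CPM in overexpression libraries and 1.36 ± 0.138 CPM in controls, and it overlaps UFSP2 on the opposite strand. CA9, the carbonic anhydrase often used as a hypoxia marker, had 0 counts in all 8 libraries; a count of 0 over the series allows up to 0.0144 CPM (3 counts, counting error only).

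The genes around these members, in lists written with earlier results known, were tested in the same fit, and by edgeR 0 of them passed the threshold. DESeq2 called 6 of them, together a share near the background, as it called 9.9% of the 13655 genes it gave an adjusted p. They were PGAM4 among the glycolysis and pyruvate genes and ARNT2 among the oxygen-sensing genes. The rest were PLOD1, FAM162A, TFRC and PLOD2 among the hypoxia-response genes. ARNT2 was lower and the others higher, and limma on log2(TPM + 1) called 0. Of 31 other glycolysis and pyruvate genes, 22 were tested, with a median log2 fold change of 0.03; at an unadjusted p under 0.05, 3 were higher, where 9.92% of all genes were, and 1 was lower, where 9.46% were. The smallest p-values there belonged to PGAM4 (log2 fold change 0.26, edgeR adjusted p = 0.109), BSG, the chaperone of the lactate transporters (0.13, edgeR adjusted p = 0.216), and ADPGK, the ADP-dependent glucokinase (0.13, edgeR adjusted p = 0.216). Of 13 oxygen-sensing genes, 12 were tested, with a median of −0.08 and 8 of 12 below 0; at an unadjusted p under 0.05, 0 were higher and 2 were lower, beside the same 9.92% and 9.46% of all genes. ARNT2 and ARNT, partner subunits of the HIF alpha proteins, had log2 fold changes of −0.22 and −0.10 (edgeR adjusted p = 0.11 and 0.206), and VHL, the ubiquitin ligase subunit that recognises hydroxylated HIF, −0.10 (edgeR adjusted p = 0.313). Of 38 other hypoxia-response genes, 32 were tested, with a median of 0.07; at an unadjusted p under 0.05, 6 were higher and 2 were lower, again beside 9.92% and 9.46% of all genes. PLOD1, a collagen lysyl hydroxylase, had 85.5, 84.4, 92.4 and 91.8 CPM in the overexpression libraries, against 77.4, 79.4, 80.7 and 72.5 CPM in the controls (log2 fold change 0.19, SE 0.05, edgeR adjusted p = 0.0887). FAM162A, a hypoxia-induced mitochondrial protein, had 54.8, 59.0, 60.7 and 61.4 CPM in the overexpression libraries, against 36.4, 49.6, 46.3 and 51.1 CPM in the controls (log2 fold change 0.36, SE 0.10, edgeR adjusted p = 0.11). TMEM45A averaged 11.0 ± 0.404 CPM in overexpression libraries and 9.26 ± 0.985 CPM in controls (log2 fold change 0.25, edgeR adjusted p = 0.142). The groups did not overlap for PLOD1, FAM162A and TMEM45A, 3 of the 32 tested, where 5.84% of all genes stood wholly higher.

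The mix of transcripts within the members was tested by edgeR's diffSpliceDGE, and 0 of the 25 members with at least 2 testable transcripts passed, where 0.383% of the 9395 genes tested did. At an unadjusted p under 0.05 there were 2, beside 3.47% of genes. GPI had the smallest Simes p, 0.00865 (adjusted 0.65), from the minor transcript ENST00000586392, with 10, 38, 22 and 153 counts in the overexpression libraries, against 12, 14, 13 and 2 in the controls. The larger swings in GPI were not what gave that p. Its long transcript ENST00000415930, which was not among the transcripts tested, had 0, 0, 3222 and 4383 counts in the overexpression libraries, against 0, 4786, 0 and 0 in the controls, while the main transcript ENST00000356487, which was tested, had 6999, 6018, 4314 and 1699 counts in the overexpression libraries, against 8087, 2570, 5850 and 6461 in the controls. Libraries of both groups thus held either assignment, with 0 counts of the long transcript in 5 of 8. ALDOA came next (Simes p 0.0211, adjusted 0.987), with 652, 121, 57 and 244 counts of ENST00000566130 in the overexpression libraries, against 9, 26, 8 and 13 in the controls, a small part of its total. The leading transcript was the same in every library for 19 of the 35 members with counts and differed for the other 16. Gene totals are therefore firmer than single transcripts. They still leave out identifiers that matched no gene, as for LDHB. Whether the totals of other members are short in that way was not tested.

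PKM is spliced to the M1 or the M2 form by a choice between neighbouring exons, and the M2 form is the one known from proliferating cells. Transcripts with the M1 exon (chromosome 15, 72203022 to 72203188) held 77.6 ± 1.42% of PKM counts in overexpression libraries and 79.4 ± 0.784% in controls. Transcripts with the M2 exon (72202454 to 72202620) had 0 counts in every overexpression library, against 0, 46, 0 and 43 counts in the controls. The M2 transcript ENST00000335181 was listed at 0 in all 8 libraries. These are the authors' transcript estimates, and reads across the exons were not analysed here, so they do not settle which form the cells made. The Simes p of PKM was 0.965.

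Near copies and overlapping genes limit several of these totals, since the authors' estimate divided the shared reads and whether counting used strand is not given. Processed copies held 20.8% as many counts as TPI1, 13.2% as many as BNIP3, 10.6% as many as LDHA and 9.52% as many as GAPDH (37 copies with counts). The copies of TPI1 averaged 89.8 ± 2.44 CPM in overexpression libraries and 79.5 ± 3.38 CPM in controls, those of GAPDH 171 ± 7.21 CPM in overexpression libraries and 154 ± 6.46 CPM in controls, and those of LDHA 78.6 ± 10.1 CPM in overexpression libraries and 62.4 ± 8.30 CPM in controls, each on the same side as its parent gene. Opposite-strand neighbours with at least 1 CPM overlapped CA9, PFKM, PFKFB2, BNIP3L, HK2, TPI1 and SLC16A1 as well as SLC16A3 and ANKRD37, and same-strand ones overlapped ALDOA, PGK1 and HIF1A.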

How the data were processed

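Per the submitters' processing notes, StringTie 2.1.0, HISAT2 2.1.0, SAMtools 1.9, cutadapt 2.8 and FastQC 0.11.5 were used with build GRCh38.p13; the sources used here give neither their roles nor the annotation release nor strand use. For 227751 Ensembl transcripts the authors deposited estimated counts (whole numbers) and TPM. Of these, 205804 found a gene in GENCODE 29 by identifier (98.7% to 98.9% of counts per library) and 21947 did not (6339 with a count). Counts were summed per gene. Depth was 24020097 to 30734915 counts per library. Chi-square per degree of freedom was 9.72 to 18.6 for the 12 pairs of libraries in the same group, so none was a copy.

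Genes were tested with edgeR 4.0.16 (R 4.3.3, quasi-likelihood, robust, TMM, filterByExpr with minimum count 10 and total 15), 4 libraries against 4, with Benjamini-Hochberg adjustment over all 19280 genes and a threshold of 0.05. Values are TMM-scaled CPM or deposited TPM, mean ± SD, n = 4 per group. Transcript usage was tested with diffSpliceDGE and isozyme shares by exact permutation. Alternatives were DESeq2 1.42.0, limma 3.58.1 on log2(TPM + 1) or log2(TPM + 0.1), other scaling and filters, a replicate block, and leaving out each library. The scripts were tested on simulated data. Promoters are from RefSeq (GRCh38.p14).

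The members and lists were chosen with earlier results of these data known. Values in every library are given for the 8 members of each subgroup with the smallest unadjusted p; of the other lists, the 3 with the smallest p are named. Other genes or transcripts given in full were chosen after their values were seen.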

Additional observations from a re-analysis of the deposited data

Results flagged for a closer look

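In 13 of 94 groups of 4 values, 1 library lay far from the other 3. For independent groups chance gives about 1 in 20, or 4.7 of 94. These groups share the same 8 libraries, and some shares repeat a gene, so the 2 numbers do not show an excess. Overexpression replicate 3 was the high one for ALDOA (752 CPM), GAPDH (1893 CPM), ENO2 (47.9 CPM) and BNIP3L (79.7 CPM). Control replicate 1 was the low one for PGK1 (353 CPM), BNIP3L (58.0 CPM), EGLN1 (53.7 CPM), EGLN3 (6.45 CPM) and the EGLN1 share of the EGLN pair (80.0%). Control replicate 2 was low for LDHB (524 CPM) and for the PFKL share of phosphofructokinase (41.9%). Control replicate 3 was high for PDK3 (11.4 CPM) and low for the PDK1 share of the PDK pair (82.5%).

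The identifier ENST00000673047, which joins to no gene of the annotation and so entered no gene total, averaged 441 ± 42.5 CPM in overexpression libraries and 183 ± 168 CPM in controls (SD, n = 4 each).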

How the results depend on the processing

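Over 17 alternative settings, 555 of 593 values of members kept their direction and side of the threshold, 8 newly passed it and 30 turned direction, in 9 members whose fold changes were near 0 or whose counts swung between libraries. The cause was not tested. The genes called over the series numbered 58, and 35 without scaling factors, 1352 by DESeq2, 7, 8 and 9 by limma on log2(TPM + 1), log2(TPM + 0.1) and log2(TPM + 1) without a filter, and 8 to 378 with 1 library left out. Members called in the glycolysis subgroup numbered 1 by DESeq2 (TPI1) and 0 to 1 with a library left out (LDHB, without control replicate 2). In the hypoxia subgroup VEGFA was the 1 member called with DESeq2 size factors, without a filter, at a mean of at least 50 counts and by DESeq2, with edgeR adjusted p of 0.0479, 0.0496 and 0.0474 under the first 3, and 0 to 1 were called with a library left out (without overexpression replicate 1 or control replicate 2). With a library left out the median log2 fold change was 0.06 to 0.13 for glycolysis and 0.0051 to 0.15 for hypoxia. Without overexpression replicate 3 and control replicate 1, 9 genes were called and the medians were 0.04 and −0.04, which the choice of these libraries lowers by construction.

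Directions turned as follows, in log2 fold change. On log2(TPM + 1), log2(TPM + 0.1) and log2(TPM + 1) without a filter, GPI was −0.01 each, PFKM −0.03 each and NDRG1 −0.08 each. With 1 library left out, the values ran from −0.02 to 0.05 for GPI, −0.09 to 0.02 for PFKP, −0.04 to 0.06 for PFKFB2 and −0.06 to 0.02 for ENO2. In the same settings they ran from −0.12 to 2.73 for PDK3, −0.22 to 0.14 for SLC16A3, −0.01 to 0.19 for EGLN1 and −0.02 to 0.10 for NDRG1. Over all 17 alternatives PDK1 ran from 0.03 to 0.16 and EGLN3 from 0.0051 to 0.24, and neither turned. Without overexpression replicate 3 and control replicate 1 the log2 fold changes were −0.01 for HK2, −0.01 for GPI, −0.08 for ENO2, −0.02 for PDK1 and −0.05 for PDK3. In that setting they were 0.18 for SLC16A3, −0.06 for EGLN1, −0.04 for EGLN3 and −0.05 for NDRG1. LDHB was 0.09 with the unmatched identifier added. As isozyme shares, the PFKM difference was 0.386 percentage points from CPM in place of −0.132, and with 1 library left out it ran from −0.732 to 0.742 for PFKM, −1.41 to 1.19 for EGLN1, −0.655 to 2.34 for PFKFB2, −5.72 to 0.363 for PDK1 and −0.201 to 0.0367 for ALDOA.

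Replicate numbers showed no consistent match between the groups. Same-numbered libraries had correlations of deviations of 0.15, −0.09, −0.00 and −0.04 over 11189 genes, and 1 of 4 overexpression libraries correlated best with its own number. Weak correlations do not show that the samples were unpaired. With the replicate number as a block, 86 genes (29 higher, 57 lower) and 0 members were called, the VEGFA adjusted p was 0.0508 by edgeR, and SLC16A3 turned to 0.0031. Counts limit SLC16A3, ANKRD37 and PDK3, and CA9 was below detection.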

Other observations

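Of the oxygen-sensing genes, the coactivator EP300 (picked after its values were seen) had 22.1, 21.8, 21.4 and 67.5 CPM in the overexpression libraries, against 65.0, 82.7, 79.0 and 39.9 CPM in the controls (log2 fold change −1.01, SE 0.49, edgeR adjusted p = 0.325). Overexpression replicate 4 lay among the controls, and control replicate 4 lay between them and the other overexpression libraries. Like that of LDHB, the EP300 total leaves out identifiers that matched no gene. Whether it is short of counts in some libraries was not tested. CREBBP, the paralog of EP300, had 107, 85.8, 86.5 and 76.7 CPM in the overexpression libraries, against 109, 93.9, 101 and 94.5 CPM in the controls.

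LDHAP2, a copy of LDHA picked after its values were seen, had 65, 248, 289 and 235 counts in the overexpression libraries, against 42, 54, 27 and 63 in the controls. TFRC, the transferrin receptor and a known HIF target, also outside the naming rule, had 108, 126, 153 and 154 CPM in the overexpression libraries, against 90.6, 108, 90.5 and 111 CPM in the controls (log2 fold change 0.43, SE 0.13, edgeR adjusted p = 0.146). The LDHB transcript ENST00000396076 had 155, 5037, 3409 and 418 counts in the overexpression libraries, against 7, 1120, 15 and 16 in the controls.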
